A study of Arabidopsis thaliana with 20 samples.

Results

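Strigolactones and karrikins are perceived by related pathways. In the strigolactone pathway the receptor hydrolase D14 binds the hormone and joins the F-box protein MAX2, and the repressors SMXL6, SMXL7 and SMXL8 are then marked for degradation. SMAX1 is the matching repressor of the karrikin pathway, which also uses MAX2. BRC1 is a TCP transcription factor that holds back bud outgrowth and acts downstream of the SMXL repressors in the shoot. The 7 genes were taken by name, and every chromatin immunoprecipitation (ChIP-seq) peak that overlapped a gene or the 2 kb on either side of it was collected, for 7 of 37899 annotated nuclear genes.

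The peaks mark where GFP-tagged subunits of SWI/SNF chromatin remodelling complexes were recovered from 14-day-old Arabidopsis thaliana seedlings. BRM is the ATPase of the BRM-associated SWI/SNF complex, and BCL7A and BCL7B are small accessory subunits of SWI/SNF complexes. Of 20 samples in the series, 12 had a peak list, in 6 groups of 2 replicates, and the other 8 samples were not analysed here. BCL7A brm-1 carried pBCL7A:BCL7A-GFP in the T-DNA double mutant bcl7a brm-1, and its reference BCL7A carried the same transgene in bcl7a. BCL7B brm-1 carried pBCL7B:BCL7B-GFP in bcl7b brm-1, and its reference BCL7B carried that transgene in bcl7b. BRM bcl7ab carried pBRM:BRM-GFP in brm-1 bcl7a bcl7b, and its reference BRM carried pBRM:BRM-GFP in brm-1. Each transgene was driven by its own gene's promoter, no group was an untagged wild type, and the libraries were made with an antibody to GFP. The lists held 14770 to 18870 nuclear peaks. BCL7B brm-1 had the shortest BCL7 lists, with 15111 ± 267 peaks (SD, n = 2), against 17570 ± 199 peaks in BCL7B. The BRM lists were cut at other limits than the BCL7 lists. Their weakest peaks had a -log10 q of 0.475 to 0.577, against 2.03 to 2.25 in the BCL7 lists, and their median widths were 799 to 841 bp, against 519 to 542 bp. Values of BRM and of the BCL7 proteins are therefore given side by side and were not tested against each other.

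Each peak is given by its summit, as the distance in bp from the gene's annotated transcription start site (TSS, negative upstream), and by its percentile, the rank of its fold enrichment over background among all nuclear peaks of the same list (100 is the strongest). A percentile compares a peak with the rest of its own list and does not show a change shared by all peaks of a library. Summits of the BCL7 lists, or of the BRM lists, that lay within 400 bp of the next were chained into a site, named by its median summit.

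The sequences below show the DNA under the sites that the results turn on, read from the reference genome (RefSeq, TAIR10.1) on the strand of the gene and outside annotated UTRs. The stretch in SMXL7 lies in its coding exon and is the product of the primer pair that the study designed for this gene. It spans chr2:12776608-12776728 (121 bp, plus strand), which is 400 to 520 bp after the TSS, and the primer sites are in capitals. A peak covered it in all 12 libraries, the summit lay inside it in 8 of them, and the farthest summit was 96 bp away.
SMXL7 product: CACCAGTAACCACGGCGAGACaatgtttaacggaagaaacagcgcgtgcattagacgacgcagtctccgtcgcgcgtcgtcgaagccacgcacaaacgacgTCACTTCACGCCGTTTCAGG

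The other windows are 101 bp long. Those of SMXL6 (chr1:2214206-2214306, minus strand), SMXL8 (chr2:16764755-16764855, plus), MAX2 (chr2:17755069-17755169, plus) and the BRM site of BRC1 (chr3:6380689-6380789, plus) are centred on the median summit. For SMAX1 and D14, where the median summit of the site lay in a 5' UTR, the bases just before the start of the transcript are shown. They are chr5:23384154-23384254 (plus) before SMAX1 and chr3:1031559-1031659 (plus) before AT3G03980, the neighbour of D14. Capitals mark matches on either strand to GAGAGA, a repeat bound by BPC factors, to GGNCCC, the core bound by TCP factors such as BRC1, to CACGTG, the G-box, or to ATAACAA, the motif bound by SMXL6.
SMXL6 -1538: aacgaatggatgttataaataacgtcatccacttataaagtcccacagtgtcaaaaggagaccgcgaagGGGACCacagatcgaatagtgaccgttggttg
SMXL8 -904: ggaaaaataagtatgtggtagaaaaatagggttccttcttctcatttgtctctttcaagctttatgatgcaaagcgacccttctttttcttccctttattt
SMAX1 start: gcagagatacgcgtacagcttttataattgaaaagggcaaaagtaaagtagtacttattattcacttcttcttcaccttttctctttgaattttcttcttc
AT3G03980 start: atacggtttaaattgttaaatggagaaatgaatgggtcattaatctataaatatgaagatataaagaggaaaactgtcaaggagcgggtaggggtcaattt
MAX2 -950: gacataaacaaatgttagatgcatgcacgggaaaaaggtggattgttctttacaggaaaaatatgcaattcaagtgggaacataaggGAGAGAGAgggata
BRC1 -2550: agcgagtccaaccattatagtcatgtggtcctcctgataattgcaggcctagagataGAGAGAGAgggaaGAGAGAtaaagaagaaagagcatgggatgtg

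GAGAGA was in the MAX2 and BRC1 windows, and overlapping matches ran together there. GGNCCC was in the SMXL6 window. The windows of SMXL8, SMAX1 and AT3G03980 held none of the 4 motifs. Of 14573 windows of this length on regions shared by the 4 lists of BCL7B and BCL7A, 18.2% held GAGAGA, 9.85% GGNCCC, 8.2% CACGTG and 2.79% ATAACAA. Among 11047 windows on regions shared by the 4 BRM lists, 21.9% held GAGAGA. Before the starts of 27443 protein-coding genes the shares were 9.99% for GAGAGA, 3.87% for GGNCCC, 3.63% for CACGTG and 4.58% for ATAACAA.

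All 7 genes had a peak within 2 kb in both libraries of all 6 groups. This alone is common, since the share of all nuclear genes that met the same condition was 69.0% in BCL7A brm-1, 66.8% in BCL7A, 60.4% in BCL7B brm-1, 65.0% in BCL7B, 58.2% in BRM bcl7ab and 60.0% in BRM. None of the 7 lost its last peak in both libraries of a mutant background, and none gained a first peak there. Over all genes with a peak in the reference, 0.841% lost it in BCL7A brm-1, 4.80% in BCL7B brm-1 and 2.49% in BRM bcl7ab. Over all genes with a peak in the mutant background, 1.80% in BCL7A brm-1, 1.38% in BCL7B brm-1 and 1.37% in BRM bcl7ab had none in the reference. With the peak required to lie on the gene itself, 3 of 7 members had one in both BCL7B brm-1 libraries, against 5 of 7 in BCL7B, and the shares of all nuclear genes were 35.9% in BCL7B brm-1 and 40.6% in BCL7B. Without BCL7B brm-1 replicate 2 the count of 3 was 5. The count was 5 of 7 in BCL7A brm-1 (43.6% of all genes) and 5 of 7 in BCL7A (42.4%). It was 6 of 7 in BRM bcl7ab (37.0%) and 5 of 7 in BRM (38.5%). The number of separate peaks near the 7 genes was 23 in BCL7B brm-1 against 33 in BCL7B, summed over 2 libraries. The whole lists were shorter as well, with 14922 and 15300 peaks in BCL7B brm-1 against 17429 and 17711 in BCL7B. The number was 32 in both BCL7A brm-1 and BCL7A, and 26 in both BRM bcl7ab and BRM.

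**Figure D1:**
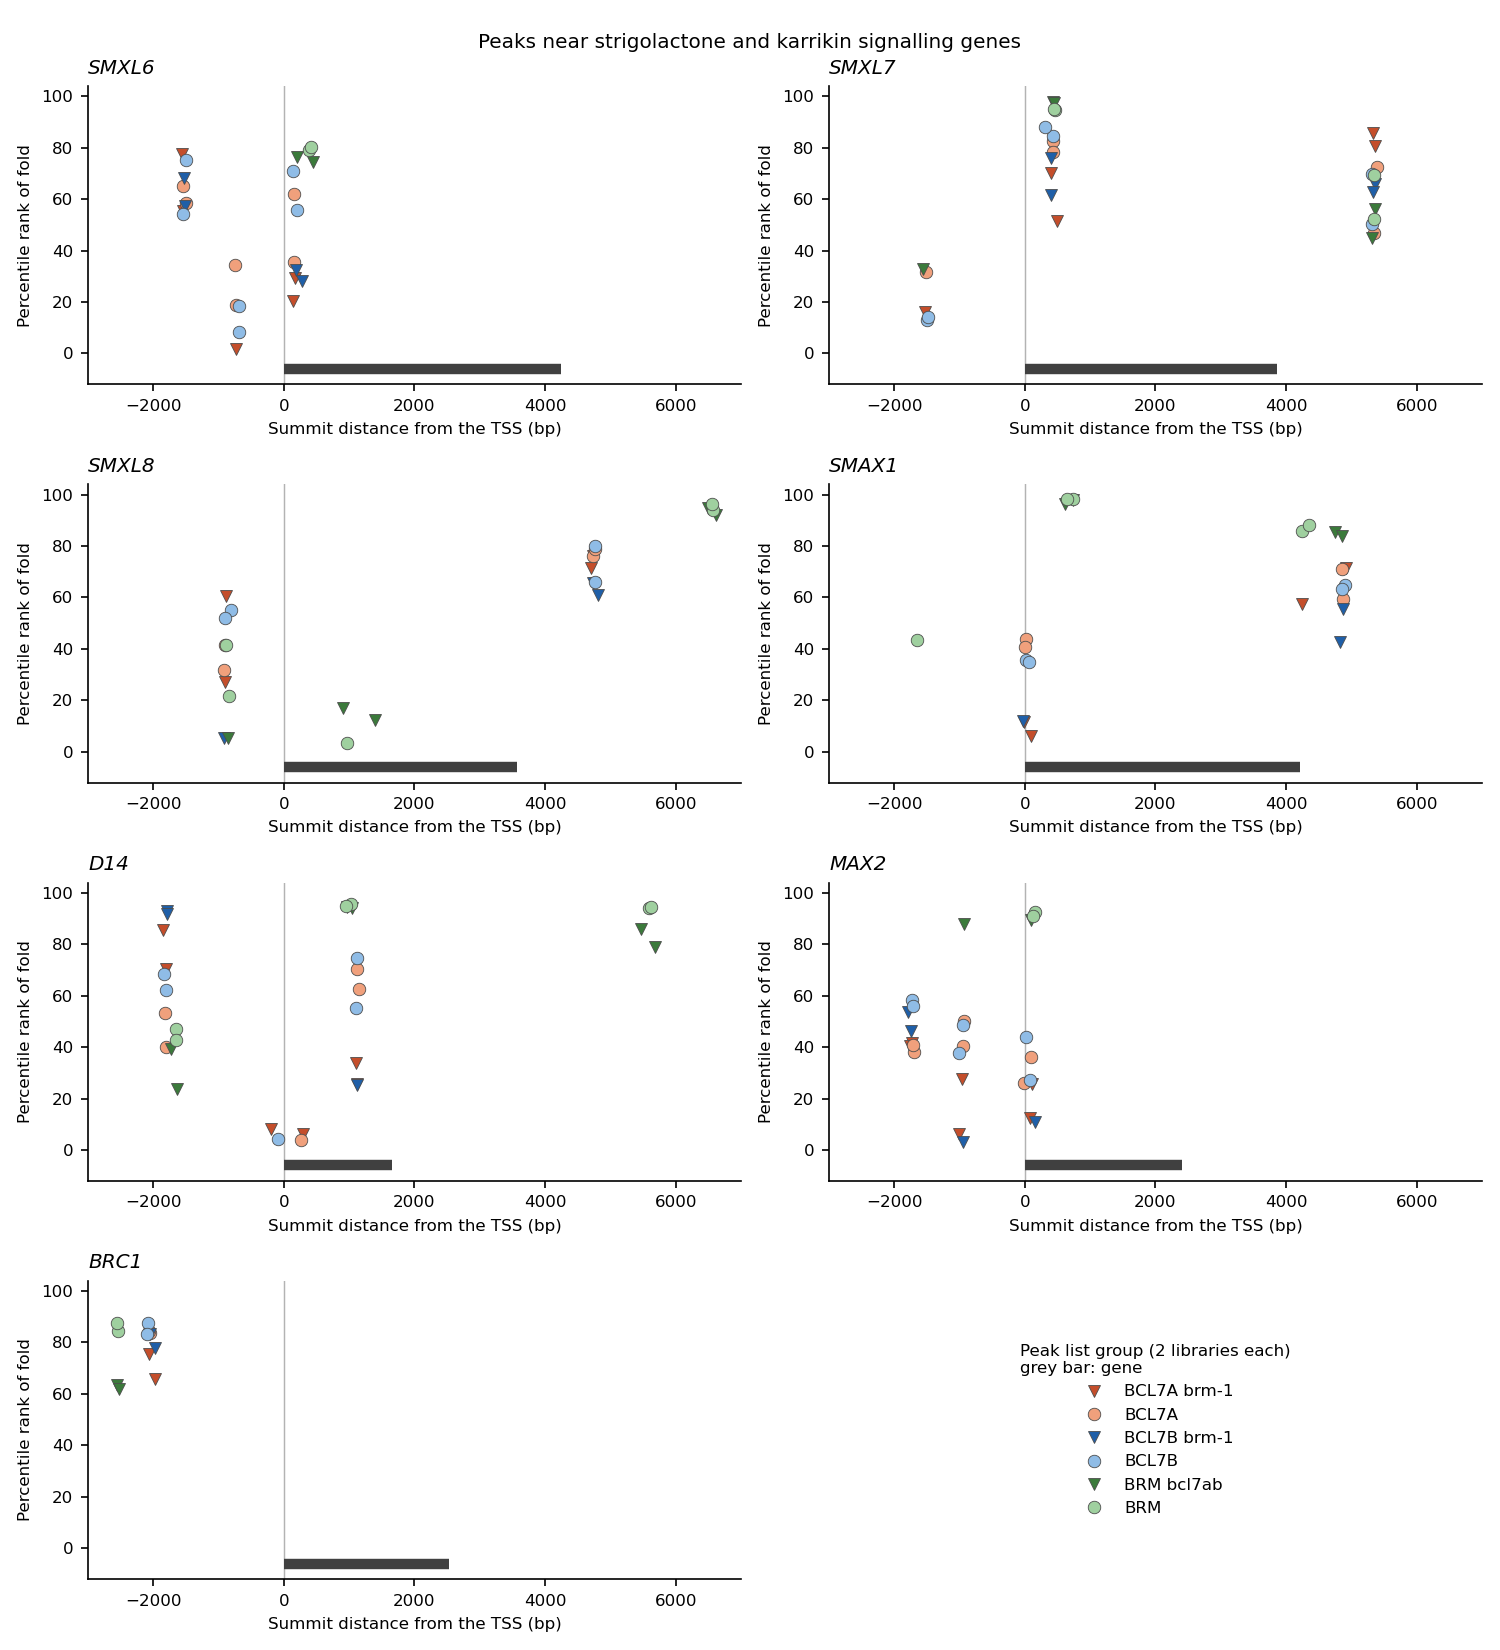
Summit distance from the TSS in bp (x axis) and percentile of the fold enrichment within its list (y axis) for each of the 172 peaks near the 7 genes, with 1 panel per gene, triangles for the mutant backgrounds, circles for their references and a grey bar for the gene. BCL7 summits fall at 1 to 3 sites per gene, and no BRC1 peak has its summit nearer to the TSS than -1971 bp.

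SMXL7 and SMXL8 had BCL7 peaks on both sides of the gene, and SMXL6 had them at and before its start. SMXL6 (AT1G07200, chromosome 1, 2208477 to 2212718, minus strand) had a BCL7 site in its 5' UTR at +162 bp. The percentile there was 20.3 and 29.4 in BCL7A brm-1, against 35.5 and 62.0 in BCL7A. It was 28.1 and 32.3 in BCL7B brm-1, against 55.7 and 71.0 in BCL7B. Both brm-1 backgrounds lay below their references without overlap, as did 22.1% of all regions for BCL7A and 36.3% for BCL7B. The differences were -23.9 ± 11.3 points for BCL7A (SE, limma adjusted p = 0.337) and -33.2 ± 10.8 points for BCL7B (limma adjusted p = 0.0825). Neither passed the threshold of 0.05. A weaker site at -726 bp was found in 1 of 2 BCL7A brm-1 libraries, at percentile 1.56, against 18.7 and 34.6 in BCL7A. It was in neither BCL7B brm-1 library, against 18.6 and 8.24 in BCL7B. The intergenic site at -1538 bp, which lies -960 bp from the TSS of the neighbour AT1G07210, overlapped between groups. Its percentiles were 77.7 and 55.5 in BCL7A brm-1 against 64.9 and 58.4 in BCL7A, and 68.2 and 57.4 in BCL7B brm-1 against 75.3 and 54.0 in BCL7B. The BRM lists had a wide peak, of 3564 to 3880 bp, with its summit at +398 bp. Its percentile was 76.4 and 74.4 in BRM bcl7ab against 79.2 and 80.3 in BRM, a difference of -4.35 ± 3.68 points (limma adjusted p = 0.543).

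SMXL7 (AT2G29970, chromosome 2, 12776208 to 12780069, plus strand) had its main site in the coding exon, at +412 bp in the BCL7 lists and +448 bp in the BRM lists, 36 bp apart. The BCL7 percentile was 70.2 and 51.6 in BCL7A brm-1, against 82.8 and 78.4 in BCL7A. It was 76.0 and 61.8 in BCL7B brm-1, against 84.6 and 88.2 in BCL7B. All 4 brm-1 libraries thus lay below the 4 references. Of all regions, 22.1% for BCL7A and 36.3% for BCL7B lay below without overlap. The differences at this site were -19.7 ± 8.41 points for BCL7A (limma adjusted p = 0.294) and -17.5 ± 6.56 points for BCL7B (limma adjusted p = 0.114). BRM stood near the top of its lists at this site, at 97.7 and 97.3 in BRM bcl7ab and at 94.6 and 95.1 in BRM. The fold enrichment was 6.96 and 6.95 in BRM bcl7ab, against 5.65 and 5.80 in BRM. The BRM difference of 2.68 ± 0.763 points did not pass the test on percentiles (limma adjusted p = 0.104), and on the log2 fold scale it was 0.32 with limma adjusted p = 0.0472.

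A further SMXL7 site at +5342 bp lay in the 3' UTR of the neighbour AT2G29980. Here the BCL7A percentiles ran the other way, at 85.6 and 80.9 in BCL7A brm-1 against 72.7 and 46.7 in BCL7A (23.6 ± 9.32 points, limma adjusted p = 0.265). BCL7B brm-1 had 65.9 and 63.0, inside the range of BCL7B at 69.9 and 50.3. BRM bcl7ab had 44.8 and 56.1, against 69.5 and 52.3 in BRM. The strongest BCL7A peak near SMXL7 was the neighbour's site in both BCL7A brm-1 libraries and the coding-exon site in both BCL7A libraries. A weak site at -1512 bp, on the long non-coding RNA AT2G08355, was called in 4 of 8 BCL7 libraries, at percentile 31.5 or less, and in 1 of 4 BRM lists, at 32.7.

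SMXL8 (AT2G40130, chromosome 2, 16765709 to 16769279, plus strand) had no BCL7 summit on the gene body. The upstream site at -904 bp was at percentile 60.7 and 27.0 in BCL7A brm-1 against 41.6 and 31.7 in BCL7A, which overlapped. It was absent from 1 BCL7B brm-1 library and at 5.42 in the other, against 55.2 and 51.9 in BCL7B. In that remaining BCL7B brm-1 library the summit pileup was 47 fragments (exact 95% Poisson interval 34.5 to 62.5) over a background of 23.5. In BCL7B it was 61 fragments (46.7 to 78.4) over 16.4 and 64 fragments (49.3 to 81.7) over 17.9, so the pileup intervals overlapped and the backgrounds also differed. The site past the 3' end at +4747 bp had percentiles of 76.2 and 71.2 in BCL7A brm-1 against 75.9 and 78.9 in BCL7A, and 61.0 and 65.8 in BCL7B brm-1 against 66.1 and 80.0 in BCL7B. BRM was weak upstream of SMXL8, at 5.32 in 1 of 2 BRM bcl7ab libraries against 41.5 and 21.5 in BRM. On the SMXL8 coding exon BRM had only weak peaks, at +938 bp in 2 libraries and at +1399 bp in 1 library, at percentiles of 3.55 to 17.1. Its strong peak near SMXL8 stood at 94.9 and 92.0 in BRM bcl7ab and 93.9 and 96.1 in BRM. The median summit lay in an intron of the neighbour AT2G40140, +274 bp from that gene's TSS. In BRM bcl7ab replicate 1 the summit lay in the 5' UTR of AT2G40140, at +204 bp.

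SMAX1 (AT5G57710, chromosome 5, 23384255 to 23388465, plus strand) had a BCL7 site at the TSS, with a median summit of +14 bp. The percentile was 11.5 and 5.92 in BCL7A brm-1, against 43.9 and 40.9 in BCL7A. It lay below without overlap, as did 22.1% of all regions in that comparison. The difference of -33.7 ± 7.89 points had a limma adjusted p of 0.145 on percentiles, and on the log2 fold scale it was -0.46 with limma adjusted p = 0.045. In BCL7B brm-1 the site was absent from 1 library and at 12.1 in the other, against 35.5 and 34.9 in BCL7B. The site past the 3' end, at +4874 bp, overlapped for BCL7A (71.3 and 57.3 in BCL7A brm-1, with the second summit at +4236 bp, against 71.1 and 59.5 in BCL7A). It was 55.3 and 42.6 in BCL7B brm-1 against 64.8 and 63.4 in BCL7B (-15.2 ± 10.7 points, limma adjusted p = 0.366). BRM stood near the top of its lists in the coding exon at +688 bp, with 97.8 and 96.5 in BRM bcl7ab and 98.4 and 98.4 in BRM (-1.26 ± 0.710 points, limma adjusted p = 0.349). That summit was 674 bp from the BCL7 site at the TSS, and the BRM peak, 3042 to 9853 bp wide, overlapped a BCL7 peak in all 4 libraries. A separate BRM summit at -1648 bp was called in 1 BRM library, at 43.5. On the 3' side of SMAX1 the BRM percentile was 85.4 and 84.0 in BRM bcl7ab, with a median summit of +4802 bp, against 85.8 and 88.0 in BRM, at +4294 bp (-2.24 ± 2.04 points, limma adjusted p = 0.575).

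D14 (AT3G03990, chromosome 3, 1033579 to 1035237, plus strand) differed in opposite directions at its 2 main BCL7 sites, on either side of its coding sequence. Upstream at -1808 bp, the median summit lay in the 5' UTR of AT3G03980, +111 bp from that gene's TSS. In the BCL7B brm-1 libraries the summit lay in its coding exon, at +130 and +133 bp. The percentile at this site was 93.0 and 91.8 in BCL7B brm-1, against 62.1 and 68.3 in BCL7B. This rise of 27.2 ± 5.30 points was the only member difference past the test on percentiles among regions with a peak in every library (limma adjusted p = 0.0341). In fold enrichment the site stood at 4.50 and 4.33 in BCL7B brm-1 and at 3.82 and 4.08 in BCL7B. The median fold over the whole list was 2.80 and 2.78 in BCL7B brm-1 and 3.38 and 3.39 in BCL7B. The rise is thus one of rank, within lists whose folds were lower. The summit pileups were 169 fragments (144 to 196) and 172 fragments (147 to 200) in BCL7B brm-1, and 129 fragments (108 to 153) and 146 fragments (123 to 172) in BCL7B. The backgrounds were 36.7 and 39.0 in BCL7B brm-1 and 33.0 and 35.0 in BCL7B. The pileup intervals thus overlapped between the groups, and no adjustment for sequencing depth was made. In BCL7A brm-1 the percentile was 70.3 and 85.4, against 40.1 and 53.3 in BCL7A, a difference of 31.2 ± 10.3 points that did not pass (limma adjusted p = 0.206). Without 1 BCL7B library the called rise was no longer past the threshold, at 24.1 points without BCL7B replicate 1 (adjusted p = 0.111) and 30.3 points without BCL7B replicate 2 (adjusted p = 0.0682).

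At the 3' end of D14 the BCL7 site at +1115 bp lay in the 3' UTR. The percentile was 33.9 and 25.6 in BCL7A brm-1, against 62.5 and 70.3 in BCL7A (-36.6 ± 10.3 points, limma adjusted p = 0.171, and -0.47 on the log2 fold scale with limma adjusted p = 0.0384). In BCL7B brm-1 it was 25.4 in 1 library and absent from the other, against 74.5 and 55.3 in BCL7B. The 4 brm-1 values at the upstream site thus lay above their references without overlap, and the 3 brm-1 values present at the 3' site lay below theirs. Over all tested regions, 26.1% in BCL7A brm-1 and 24.6% in BCL7B brm-1 lay above without overlap. The shares that lay below were 22.1% and 36.3%. A weak BCL7 site near the D14 TSS, at +85 bp, had its own summit in both BCL7A brm-1 libraries, in 1 BCL7A library and in 1 BCL7B library, at percentiles of 3.82 to 8.19. In BCL7A replicate 2 and BCL7B replicate 2 the peak of the +1115 bp site was 1873 and 2100 bp wide. It covered the TSS site as well, so only a separate summit was missing there. BRM was high at +1002 bp in every library, at 94.2 and 94.4 in BRM bcl7ab and 95.4 and 94.9 in BRM (-0.874 ± 0.870 points, limma adjusted p = 0.607). At the upstream site BRM was moderate, with 39.1 and 23.6 in BRM bcl7ab against 47.0 and 42.7 in BRM. A wide BRM peak reached into the 2 kb beyond D14, with its summit at +5606 bp in a coding exon of AT3G04010. Its percentile was 78.7 and 85.8 in BRM bcl7ab against 94.2 and 94.5 in BRM (-12.1 ± 2.29 points, limma adjusted p = 0.0523, just outside the threshold).

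**Figure D2:**
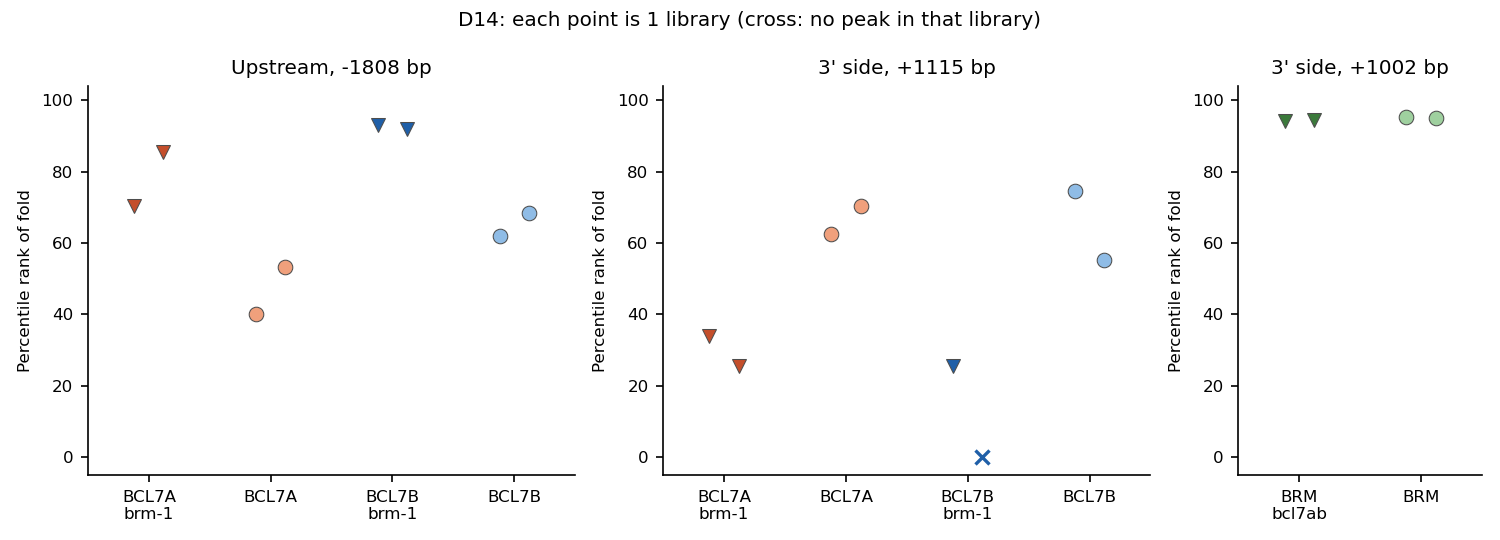
Percentile of the fold enrichment (y axis) at the 3 main D14 sites by group (x axis), with 1 point per library and a cross at 0 for a library with no peak. The BCL7B brm-1 points at -1808 bp stand at 93.0 and 91.8 above BCL7B at 62.1 and 68.3, while at +1115 bp the brm-1 points lie below their references and the BRM points at +1002 bp all exceed 94.

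MAX2 (AT2G42620, chromosome 2, 17756069 to 17758468, plus strand) had 3 BCL7 sites. At the farthest, -1732 bp, the percentiles were 41.5 and 40.5 in BCL7A brm-1 against 38.0 and 40.8 in BCL7A, and 46.4 and 53.8 in BCL7B brm-1 against 58.5 and 55.9 in BCL7B. The middle site at -950 bp was at 6.22 and 27.5 in BCL7A brm-1, against 40.3 and 50.1 in BCL7A (-28.3 ± 10.1 points, limma adjusted p = 0.23). It was absent from 1 BCL7B brm-1 library and at 3.22 in the other, against 37.7 and 48.6 in BCL7B. At the 5' UTR site, +79 bp, the percentile was 25.7 and 12.2 in BCL7A brm-1 against 36.1 and 26.2 in BCL7A. It was 10.9 in 1 BCL7B brm-1 library and absent from the other, against 43.8 and 27.0 in BCL7B. At the 2 sites nearer the gene BCL7A brm-1 thus lay below BCL7A without overlap, as did 22.1% of all regions in that comparison. The 1 BCL7B brm-1 value present at each of them lay below BCL7B. It was not tested, since these sites enter only through BCL7B. At the farthest site the BCL7A values overlapped, and BCL7B brm-1 lay below BCL7B (-7.09 ± 10.5 points, limma adjusted p = 0.681). In that comparison 36.3% of all regions lay below without overlap. BRM covered this stretch with a wide peak, at 88.0 and 89.3 in BRM bcl7ab against 92.5 and 90.8 in BRM (-3.00 ± 1.42 points, limma adjusted p = 0.271). Its summit lay at -936 bp in BRM bcl7ab replicate 1 and at +98 to +157 bp in the other BRM libraries.

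**Figure D3:**
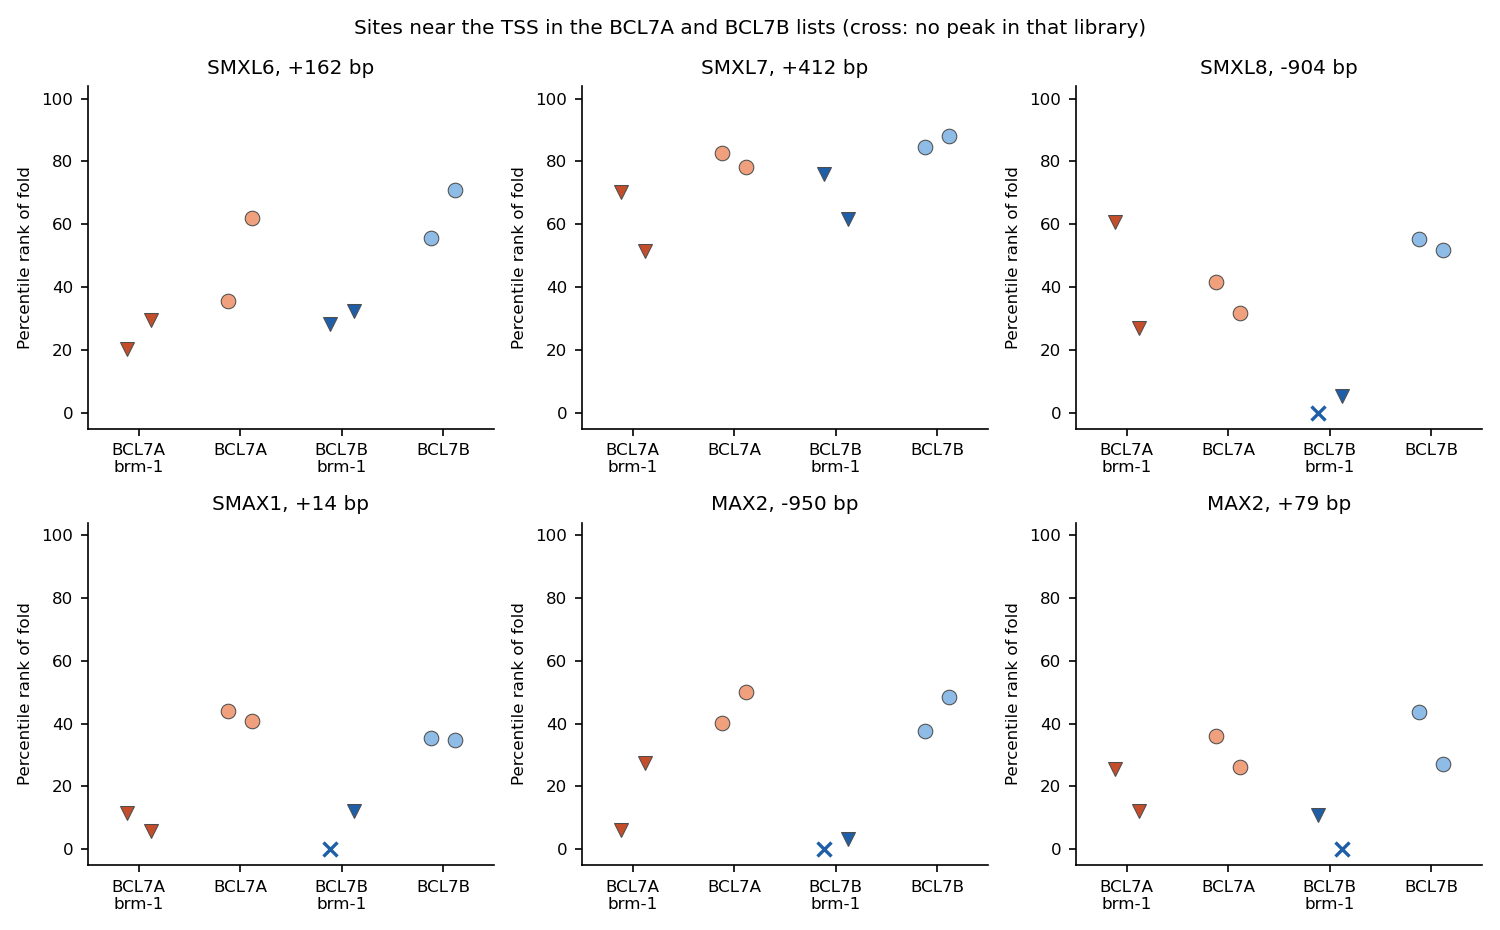
Percentile of the fold enrichment (y axis) at 6 BCL7 sites on or upstream of the start of SMXL6, SMXL7, SMXL8, SMAX1 and MAX2 by group (x axis), with 1 point per library and a cross at 0 for a library with no peak. In 4 of the 6 panels 1 BCL7B brm-1 library has no peak, and SMXL8 is the panel where the BCL7A brm-1 points (60.7 and 27.0) surround BCL7A.

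BRC1 (AT3G18550, chromosome 3, 6383289 to 6385815, plus strand) had no peak on the gene in any library. Its BCL7 site at -2056 bp was on the long non-coding RNA AT3G03705, +91 bp from the TSS of that transcript. The percentile was 75.6 and 65.6 in BCL7A brm-1 against 83.6 and 84.6 in BCL7A (-13.5 ± 5.61 points, limma adjusted p = 0.282). It was 83.4 and 78.0 in BCL7B brm-1 against 87.7 and 83.1 in BCL7B, which overlapped. The BRM summit at -2550 bp lay 494 bp farther upstream on the same transcript. Its percentile was 63.6 and 62.0 in BRM bcl7ab, against 84.5 and 87.5 in BRM. The pileup was 71 fragments (55.5 to 89.6) and 83 fragments (66.1 to 103) in BRM bcl7ab, against 105 fragments (85.9 to 127) and 121 fragments (100 to 145) in BRM. The backgrounds were 25.6 and 30.9 in BRM bcl7ab and 26.1 and 27.8 in BRM, and some of the pileup intervals overlapped between the groups. The difference of -23.2 ± 4.50 points was the lowest of the 11 member regions in this comparison and lay just outside the threshold (limma adjusted p = 0.0552). On the log2 fold scale it was -0.57 with limma adjusted p = 0.0144.

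The brm-1 comparisons were then read over all member regions. A region joins overlapping peaks of the libraries compared, and regions with a peak in every library were tested by limma over the whole genome with Benjamini-Hochberg adjustment. For BCL7A brm-1 against BCL7A, on percentiles, 0 of 14 member regions passed, and 0 of 14934 regions passed in all (0% lower and 0% higher). Unadjusted p was under 0.05 for 7 of the 14 and for 2445 of all regions. Of the 14, 7 were lower without overlap, 2 were higher without overlap and 5 overlapped, against 22.1% lower and 26.1% higher without overlap among all regions. On the log2 fold scale 2 of the 14 were called lower, the SMAX1 start and the D14 3' site, and of all regions 1.87% were called lower and 1.67% higher on that scale. The median difference was -7.95 points over the member regions and 0.566 points over all regions.

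For BCL7B brm-1 against BCL7B, 1 of 9 member regions was called, the higher D14 site. Among 12031 regions 6.38% were called lower and 2.85% higher. That split was 767 lower and 343 higher, against 1559 lower (13.0%) and 1594 higher (13.2%) on the log2 fold scale and 570 lower and 591 higher with lists of equal length. Without overlap 5 of the 9 were lower and 1 was higher, against 36.3% lower and 24.6% higher among all regions. The median difference was -7.09 points over the member regions and -2.37 points over all. These 9 leave out the 7 regions at sites that were absent from at least 1 BCL7B brm-1 library, which were SMXL6 at -726 bp, SMXL7 at -1512 bp, SMXL8 at -904 bp, the SMAX1 start, the D14 3' site and MAX2 at -950 and +79 bp. They are given above as values, with no test, since they enter only through BCL7B, where they were present. These absences go with the shorter BCL7B brm-1 lists, and the part of list length in them was not tested.

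The BCL7A and BCL7B effects of brm-1 were compared by an interaction term over 8 libraries. Of 9 member regions 0 passed, with unadjusted p under 0.05 for 0 of them and for 2076 of 11586 regions, of which 0.155% were called lower and 0.00863% higher. The differences between the effects ran from -19.2 points at the SMXL7 neighbour site to 8.80 points at BRC1. For D14 at -1808 bp the difference was -4.01 ± 11.8 points, so the rise called for BCL7B was not shown to differ from that of BCL7A.

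**Figure D4:**
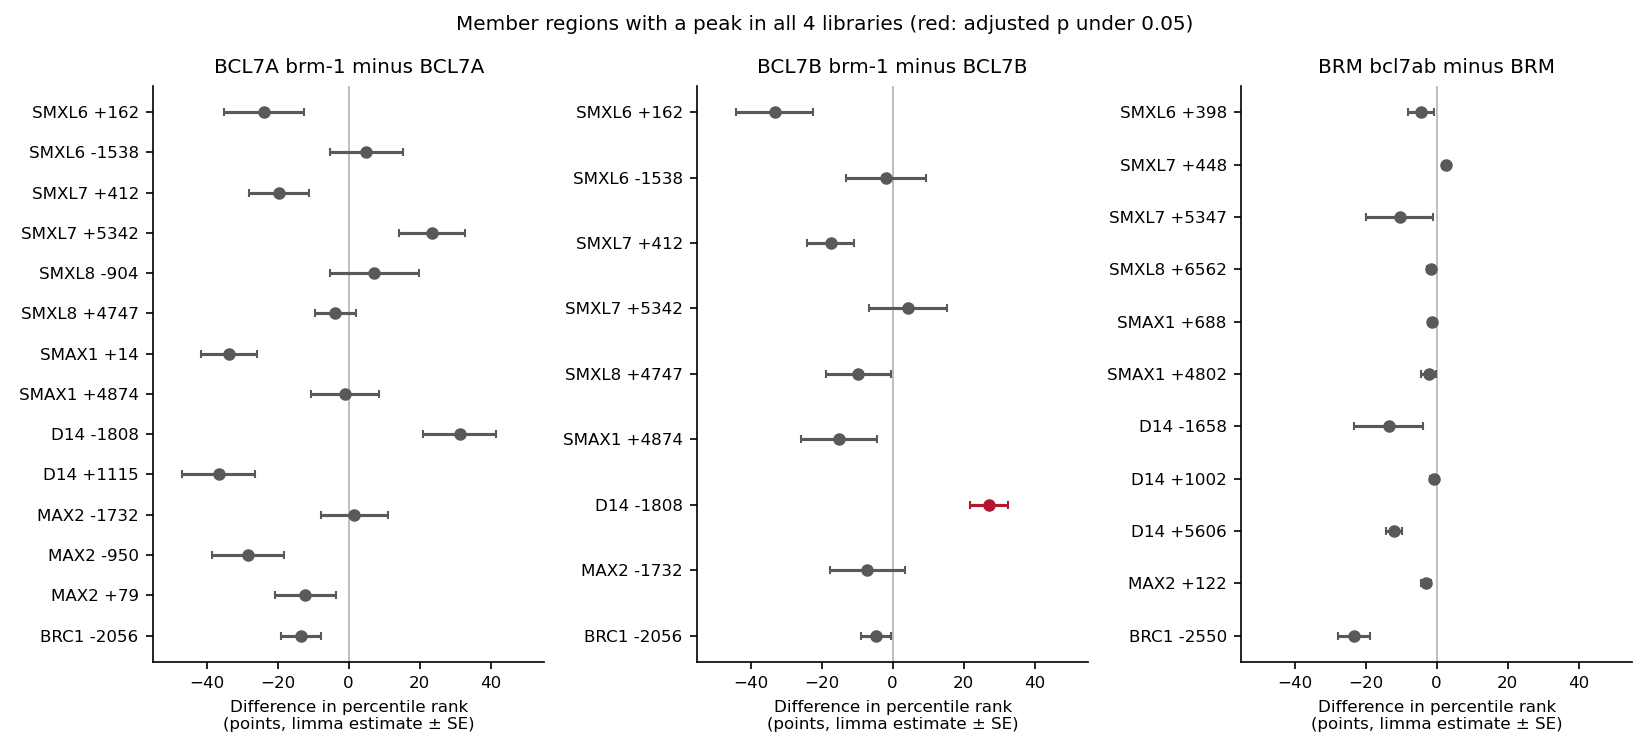
Difference in percentile points (x axis, limma estimate ± SE) for each member region with a peak in all 4 libraries of a comparison (y axis, gene and summit distance from the TSS in bp). The D14 site at -1808 bp in BCL7B brm-1, at 27.2 points, is the region past adjusted p of 0.05.

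BRM peaks were present at all 7 genes in the bcl7a bcl7b background. In BRM bcl7ab against BRM, 0 of 11 member regions passed on percentiles, with unadjusted p under 0.05 for 3 of the 11 and for 2270 of 11047 regions. Of all regions 0.498% were called lower and 0.281% higher. The log2 fold scale called 3 of the 11, which were D14 at +5606 bp and BRC1 lower and SMXL7 at +448 bp higher, and among all regions it called 206 lower (1.86%) and 380 higher (3.44%), against 55 lower and 31 higher on percentiles. Without overlap 8 were lower and 1 was higher, against 28.9% lower and 23.0% higher among all regions. The median difference was -3.00 points over the member regions and -0.718 points over all. The main BRM summits lay 36 bp from a BCL7 site at SMXL7, 43 bp at MAX2 and 113 bp at the D14 3' end. The distance was 236 bp at SMXL6, 494 bp at BRC1 and 674 bp at SMAX1. The MAX2 distance leaves out BRM bcl7ab replicate 1, whose summit lay 14 bp from another BCL7 site, at -950 bp. At SMXL8 the strong BRM summit lay 1815 bp from the nearest BCL7 site collected. The D14 peak at +5606 bp overlapped none of the BCL7 peaks collected within 2 kb of D14. Most of that BRM peak lies beyond this window, where BCL7 peaks were not collected.

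**Figure D5:**
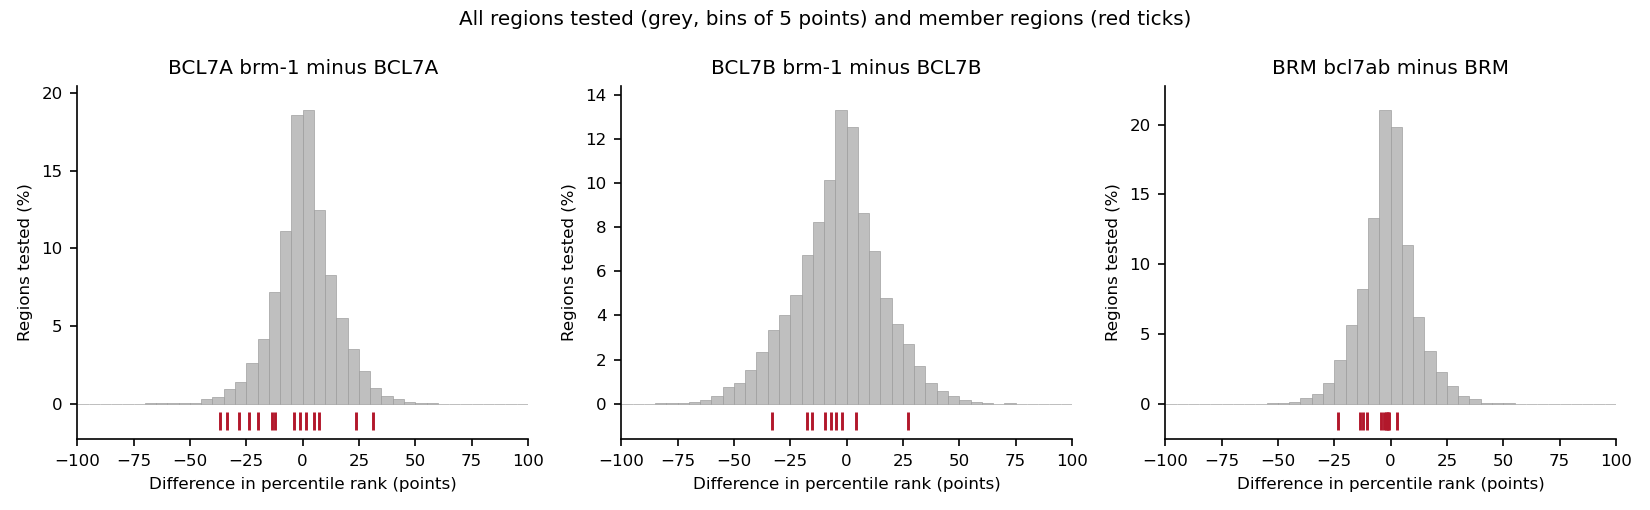
Share of all tested regions in percent (y axis, bins of 5 points) by their difference in percentile (x axis) in each mutant background against its reference, with the member regions as red ticks. Member differences run from -36.6 to 31.2 points for BCL7A, -33.2 to 27.2 points for BCL7B and -23.2 to 2.68 points for BRM.

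Between the BCL7 proteins themselves, 0 of 15 member regions passed for BCL7B against BCL7A, and 0 of 14573 regions did in all (0% in either direction). Unadjusted p was under 0.05 for 0 of the 15 and for 1816 of all regions. BCL7B was lower without overlap at 2 regions and higher at 4, against 25.0% and 19.5% of all regions, and 9 overlapped. Differences ran from -13.2 points at SMXL6 -726 bp to 18.5 points at D14 -1808 bp, where BCL7B had 62.1 and 68.3 against 40.1 and 53.3 in BCL7A. MAX2 at -1732 bp was the next, at 58.5 and 55.9 in BCL7B against 38.0 and 40.8 in BCL7A (17.8 ± 10.1 points, limma adjusted p = 0.5). With 2 libraries a group, the replicates differed by a median of 6.82 points in BCL7B and 7.14 points in BCL7A over all regions, and by 21.5 and 21.8 points at the 90th percentile.

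The strongest BCL7 peak near each gene also ordered the genes. In BCL7B it averaged 86.4 at SMXL7 and 85.4 at BRC1, whose values overlapped. SMXL6 (73.2), SMXL8 (73.0) and D14 (71.4) followed and overlapped each other, and SMAX1 (64.1) and MAX2 (57.2) each lay below without overlap. In BRM, SMAX1 was first at 98.4, D14 (95.2), SMXL8 (95.0) and SMXL7 (94.8) overlapped each other, and MAX2 (91.6), BRC1 (86.0) and SMXL6 (79.8) followed without overlap. In BRM bcl7ab the first was SMXL7, at 97.5, next to SMAX1 at 97.1, whose values overlapped. These strongest peaks did not all lie on the gene they are listed under. For SMXL8 the BRM summit was at the neighbour AT2G40140, with only weak BRM peaks on the SMXL8 coding exon. The BRC1 peaks were on AT3G03705, and the BCL7B peaks of SMXL8 and SMAX1 had their summits past the 3' end. The BCL7B peak of MAX2 was the site at -1732 bp. For D14 it was the site at +1115 bp in BCL7B replicate 1 and the site at -1808 bp in replicate 2. For SMXL6 it was the site at -1538 bp in replicate 1 and at +162 bp in replicate 2, so these averages mix sites. The profile over all 12 libraries was compared with that of every other protein-coding gene that shared no peak with the member, by the root mean square difference of the strongest peak's percentile. The closest genes were AT2G26520 and PDE135 for SMXL7 (2.38 and 2.69 points), RABA6b and AT1G18210 for D14 (both 4.13 points) and PIL6 and AT1G09250 for MAX2 (5.23 and 5.87 points). For SMXL8 they were AT1G13230 and RTFL17 (both 4.50 points), for SMAX1 AT1G19330 and AT1G68680 (4.67 and 5.30 points), for SMXL6 CM3 and RRG (both 5.43 points) and for BRC1 ZTL and AT1G55680 (5.84 and 6.13 points). Genes that shared a peak with each other were not left out. The pairs of D14, SMXL8 and SMXL6 have close locus numbers and equal differences, so each pair may stand for the same peaks.

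Of 23 other genes of strigolactone and karrikin synthesis, perception and response, 19 had a peak within 2 kb in both BCL7A brm-1 libraries, against 18 in BCL7A. The count was 17 in BCL7B brm-1 against 18 in BCL7B, and 17 in BRM bcl7ab against 18 in BRM. The shares of all nuclear genes were 69.0% in BCL7A brm-1, 66.8% in BCL7A, 60.4% in BCL7B brm-1 and 65.0% in BCL7B. They were 58.2% in BRM bcl7ab and 60.0% in BRM. Of their tested regions, 0 of 29 were called in BCL7A brm-1, 0 of 29 in BRM bcl7ab and 2 of 25 in BCL7B brm-1, both lower, beside the 6.38% lower and 2.85% higher of all regions. This balance turned with the scale. On the log2 fold scale 3 of the 25 were called lower and 5 higher, beside 13.0% lower and 13.2% higher of all regions. With lists of equal length 2 of 23 were called lower and 2 higher, beside 570 lower and 591 higher of all 10969 regions. In BCL7A brm-1 1 of 29 was called lower on the log2 fold scale, beside 1.87% of all regions. In BRM bcl7ab 3 of 29 were called higher on that scale, beside 3.44% of all regions. KAI2 (AT4G37470), the karrikin receptor and the paralogue of D14, had the first of the 2 regions called on percentiles in BCL7B brm-1. It lay at +1818 bp, in a non-coding stretch of its exon near the 3' end. The percentile was 6.79 and 14.2 in BCL7B brm-1, against 69.9 and 62.9 in BCL7B (-55.9 ± 9.78 points, limma adjusted p = 0.0338). In BCL7A brm-1 it was 24.6 and 59.0, against 66.0 and 40.7 in BCL7A, which overlapped. A site beyond the KAI2 3' end, at +3015 bp and +305 bp from the TSS of the neighbour AT4G37460, stood at 71.8 and 81.0 in BCL7B brm-1, against 41.4 and 45.6 in BCL7B (32.9 ± 10.3 points, limma adjusted p = 0.0745, not called). The other called region was in an intron of HB53 (AT5G66700), a homeobox gene that BRC1 activates, at +851 bp. Its percentile was 59.8 and 19.2 in BCL7B brm-1, against 92.2 and 93.2 in BCL7B (-53.2 ± 13.6 points, limma adjusted p = 0.0493). Leaving out either BCL7B library ended both calls, with adjusted p of 0.143 and 0.099 for KAI2 and 0.253 and 0.244 for HB53 without BCL7B replicate 1 and replicate 2 in turn.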

How the data were processed

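Peak lists (narrowPeak) of 12 ChIP-seq libraries were used. The authors aligned reads to TAIR10 (with Bowtie per the labels and Bowtie2 per the methods text). They called peaks for each library with MACS2 (2.1.1 per the labels), with a stated q of 0.05 and an extension size of 200 bp. The deposited lists do not follow that q throughout. The weakest BRM peaks had a -log10 q of 0.475 to 0.577, weaker than a q of 0.05, and a -log10 p of 1.31 to 1.41. The weakest BCL7 peaks, at a -log10 q of 2.03 to 2.25, were stricter than it. The deposited fold enrichment is a ratio, the pileup at the summit over the expected background, and the deposited p and q values are on the -log10 scale. The deposited score column and a second, undescribed list of intervals in the BCL7 files were not used. Sequencing depth per library is not given in the lists. Where a summit pileup is printed, it is the whole number of fragments that reproduces both the deposited fold and the p-value (172 of 172 member peaks, misfit under 0.01), and its interval covers counting error only. The peak names in all 12 lists carry the tag RmDup, and no further account of duplicate removal was used here.

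Chromosome lengths of TAIR10.1 (RefSeq) held all peaks, and its annotation placed them. The sequence of the BCL7 site near BRC1 is not reported here. Peaks were ranked by fold within the nuclear chromosomes. Regions were joined by at least 1 bp of overlap and fitted with limma 3.58.1 in R 4.3.3 (lmFit, eBayes with trend) on percentiles, with Benjamini-Hochberg adjustment over all regions and a threshold of 0.05. The fit was tested on simulated data. The study describes the replicates as biological. With 2 libraries against 2, an exact permutation test cannot go below p = 0.333, so none was used. The 7 genes and 23 further genes, and the sites and settings, were chosen with earlier results of these data known. All 7 members are named, and of the 23 those with a called region or a peak lost or gained in both libraries. The alternatives are given in the closing section.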

Additional observations from a re-analysis of the deposited data

How the results depend on the processing

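All 7 genes kept a peak in both libraries within 2 kb when peaks under a -log10 q of 5 were dropped, and with either library alone. On the gene itself the count was 3 in BCL7B brm-1 (35.9% of all genes) and 5 in BCL7B (40.6%), and without BCL7B brm-1 replicate 2 the 3 became 5. With the summit within 2 kb of the TSS it was 4 in BCL7B brm-1 (48.8%) and 6 in BCL7B (54.0%), and without BCL7B brm-1 replicate 1 the 4 became 7. The numbers of regions called across the genome moved with the processing, and the cause was not tested. On the log2 fold scale they were 529 for BCL7A brm-1 against BCL7A, 3153 for BCL7B brm-1 against BCL7B, 586 for BRM bcl7ab against BRM, 64 for BCL7B against BCL7A and 246 for the interaction, against 0, 1110, 86, 0 and 19 on percentiles. Without the trend, 0 were called in the BCL7B brm-1, BRM bcl7ab and interaction comparisons. With missing peaks at percentile 0 the counts were 2511 for BCL7B brm-1, 0 for BRM bcl7ab and 202 for the interaction. Dropping peaks under a -log10 q of 5 gave 0 for BRM bcl7ab and 11 for the interaction. Lists of equal length gave 50 and 0, and regions chained by summits within 200 bp gave 0 and 12. Leaving out 1 library at a time gave 0 to 327 regions for BCL7A brm-1, 0 to 1651 for BCL7B brm-1 (0 without BCL7B replicate 1 and 65 without BCL7B replicate 2), 50 to 175 for BRM bcl7ab, 0 to 177 for BCL7B against BCL7A and 0 to 418 for the interaction. The lone library left in such a group is assumed to vary like the others.

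Replicate numbers did not pair the libraries, since the deviations of same-numbered libraries had correlations of -0.021 to 0.002. With the replicate number as a block, 0 regions were called for BCL7A brm-1, 1725 for BCL7B brm-1, 294 for BRM bcl7ab, 0 for BCL7B against BCL7A and 0 for the interaction, and the block called BRC1 (adjusted p = 0.0414) and D14 at +5606 bp (adjusted p = 0.0187) in BRM bcl7ab. The D14 site at -1808 bp, called in BCL7B brm-1, had adjusted p from 0.00158 to 0.111 over 11 alternatives and was not past the threshold without the trend (0.0758) or without either BCL7B library. SMXL7 at +412 bp was called only without BCL7B brm-1 replicate 1 (-24.6 points, adjusted p = 0.0306). BRC1 and D14 at +5606 bp were also called without either BRM bcl7ab library. Pileups of 40 to 222 fragments limit the precision of a single value.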
